A study of Mus musculus with 12 samples.

Results

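The 42 genes described here encode proteins of the cytosolic ribosome, the particle that makes the cell's proteins, and they are part of 18193 mouse genes measured in all. Membership goes by the gene's name and by no measured value: symbols that begin with Rpl (large subunit) or Rps (small subunit) followed by digits and at most 1 letter a or x, together with Rplp0, Rplp2 and Rpsa, while related copies such as Rps27l were left out. Of the 42 genes, 22 belong to the large and 20 to the small subunit. Each gene is represented by the brightest of the probe sets that the platform annotation assigns to it alone, out of 94 such probe sets. A further 27 ribosomal protein genes, among them Rpl5, Rplp1, Rpl10 and Rpl36a, are listed only on probe sets that carry several symbols and are not named from them.

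Total RNA of 4 mouse acute myeloid leukaemia lines, established from BXH-2 mice (an inbred strain prone to myeloid leukaemia), was hybridised to 12 arrays of 1 colour, 3 per line, which carry the letters A, B and C. B117P and B140P are the parental lines, described as sensitive to Ara-C (cytarabine, a nucleoside drug that blocks DNA synthesis and is a mainstay of leukaemia treatment). B117H and B140H are the highly Ara-C-resistant lines derived from them, and the study compared each resistant line with its parent. Each line stands for a single derivation, so a difference between lines cannot be told apart from a difference between clones, and the same words on exposure to rising Ara-C and on passage without the drug stand with all 12 samples. Whether the arrays of a line stem from independent cultures is not stated; p-values therefore describe only how far these samples scatter, which may be technical.

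Ribosomal protein genes are transcribed by RNA polymerase II at many places in the genome, and their products are made in near equal amounts because every ribosome needs each of them. Their messenger RNAs begin with an unbroken tract of pyrimidines (C and T in the gene), through which mTOR signalling and the RNA-binding protein Larp1 control their translation. Loss of a single copy of some of them, such as Rps19, Rpl11 or Rps14, causes failure of red cell production in bone marrow, and free Rpl5 and Rpl11 bind Mdm2, the ubiquitin ligase that keeps p53 low.

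Sequences around the annotated start of 6 members are shown for their longest run of pyrimidines, which lies across the start in 5 of them and ahead of it in Rps25. RefSeq promoter entries (build GRCm38.p6) were matched by symbol to 37 of the 42 genes; Rps29, Rps14, Rpl8, Rps20 and Rpl7 were not matched. Each line gives 50 bases, from 30 before to 20 from the annotated start onward, 5′ to 3′ on the strand of the gene, and the capitals mark the longest run of C and T. Rplp2, of the ribosomal stalk, lies at chr7:141447621-141447670 on the plus strand; Rpl35 at chr2:39005112-39005161 on the minus strand; Rpl27a at chr7:109519165-109519214 on the plus strand. Rps18 lies at chr17:33955646-33955695 on the minus strand, Rps9 at chr7:3704011-3704060 on the plus strand and Rps25, the member with the largest change below, at chr9:44407684-44407733 on the plus strand.
Rplp2: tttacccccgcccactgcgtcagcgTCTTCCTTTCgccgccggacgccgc
Rpl35: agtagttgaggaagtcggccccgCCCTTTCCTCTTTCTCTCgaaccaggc
Rpl27a: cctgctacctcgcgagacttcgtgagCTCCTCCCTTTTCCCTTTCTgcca
Rps18: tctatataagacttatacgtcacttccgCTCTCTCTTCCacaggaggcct
Rps9: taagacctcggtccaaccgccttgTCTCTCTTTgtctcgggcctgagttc
Rps25: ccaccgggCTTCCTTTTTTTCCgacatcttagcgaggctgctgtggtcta

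A run of at least 8 such bases was found in this window in 18 of the 37 genes (48.6%), against 19.5% of the first entries of 17491 protein-coding genes. The runs were 10 bases long in Rplp2, 18 in Rpl35, 20 in Rpl27a, 11 in Rps18 and 9 in Rps9, and each of these began within the 7 bases before the annotated start. In Rps25 the run of 14 bases began at position -22, ahead of the annotated start. Over the whole 300-base entries, searched on both strands, the letters CCGGAAG (the core bound by ETS factors) stood in 48.6% of the members and 11.9% of all genes. AAGATGG (YY1) stood in 16.2% of the members and 6.37% of all genes, and GGGCGG (SP1) in 54.1% and 46.3%. TATAAA (the TATA box) was found in 10.8% of the members and 13.3% of all genes. A match of letters is a description and not a site of binding.

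The deposited intensities are given below as log2(value + 1), so a difference of 1 is 2-fold. The members' probe sets were among the brightest on the arrays. Their median was 14.39 on this scale over all 12 arrays, at the median percentile 99.8 of all genes, and 33 of the 42 lay at 14 or above, where 64 genes lay in all and where the brightest probe set of any array reached 15.16. Rps29 (14.83), Rplp2 (14.81) and Rps28 (14.71) were the brightest. The other 9 were dimmer: Rpl37 at 12.15, Rps25 at 11.57, Rps6 at 10.69, Rpl14 at 10.15, Rpl12 at 9.93, Rpl27a at 9.61, Rps27 at 8.72, Rpl39 at 6.86 and Rps16 at 5.18, of which Rpl39 and Rps16 lay below the median of all probe sets (6.95). Brightness also depends on the probes, so these values do not rank the amounts of RNA between genes, and members with near-identical pseudogene copies may carry signal of those copies.

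**Figure D1:**
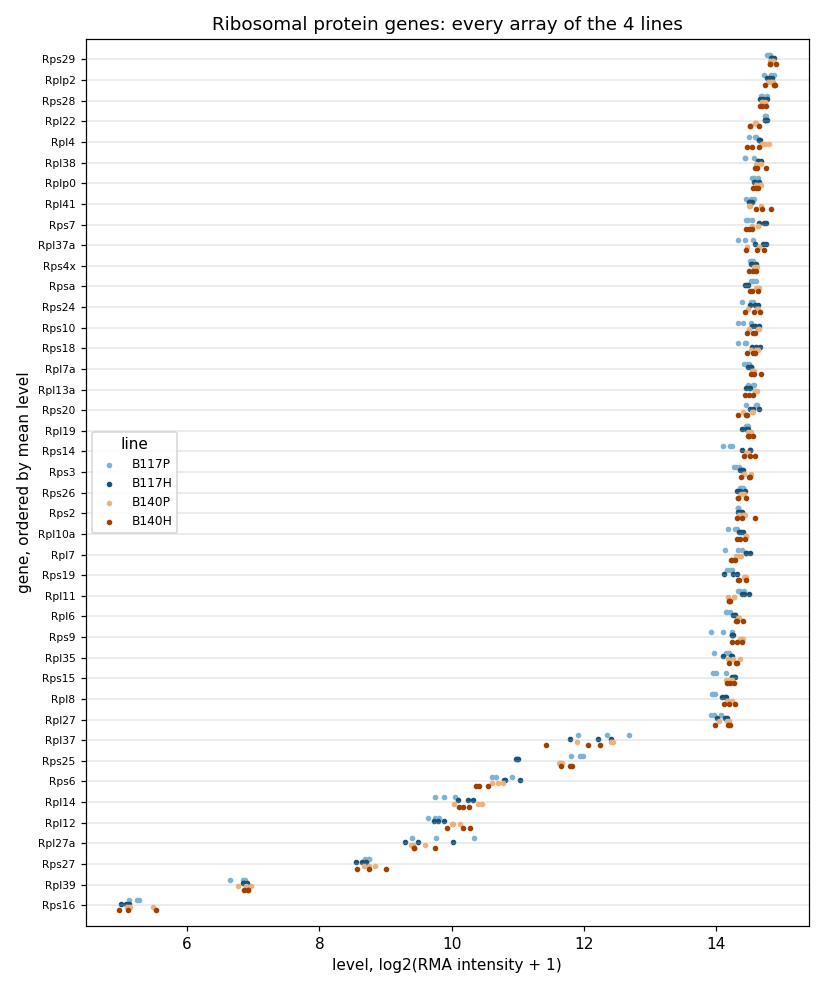
Level of each of the 42 ribosomal protein genes on every array, as log2(RMA intensity + 1) on the x axis, with genes ordered by mean level and 1 colour per line (3 points each). The 33 genes at 14 or above form a narrow column in all 4 lines, and the B117H points of Rps25 (10.97 to 10.996) lie below those of the other lines.

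Levels differed little between arrays. The median residual SD of the members was 0.0639 log2 units, against 0.144 for all genes. The 33 bright members had a median SD of 0.0618, the other 31 genes at 14 or above 0.0589, and the 9 dimmer members 0.127. The members' share of the intensity summed over all genes lay between 3.97% and 4.08% on the 3 B117P arrays and between 4.22% and 4.34% on the B117H arrays, without overlap. It lay between 4.27% and 4.38% in B140P and between 4.12% and 4.35% in B140H, where the arrays overlapped. In these bulk samples, fewer cells of a type and less RNA per cell cannot be told apart.

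As for the arrays as a whole, median intensities ran from 118 to 131, and 1 array stood apart: B140H B had a lower quartile of 58.6, against 50.8 to 53.7 on the others. On all 4 A arrays most members lay below their line's mean, with 11, 12, 12 and 7 of 42 above it in B117P, B117H, B140P and B140H. Of the 17 myeloid markers measured, 11 lay above the median of all probe sets in every line. So did 3 of 4 T-cell, 2 of 3 erythroid, 2 of 3 megakaryocyte, 2 of 6 stromal and 1 of 5 B-cell genes measured. Mpo read 14.62 in B117P and 14.04 in B117H, but 9.54 in B140P and 7.13 in B140H. Meis1 lay below that median in the B117 lines (6.81 and 6.70), and Lyz2 in B140P (6.75). Itgam (6.30 and 6.02) and Fcgr3 (6.92 and 6.56) lay below it in the B140 lines. Kit (5.15 in B140P, 5.53 in B140H) and Cd34 (5.36 and 5.22) lay below that median in the B140 lines, where the B-cell genes Cd79b (10.84 and 11.43), Ebf1 (9.66 and 9.71) and Cd79a (8.25 and 9.12) lay above it. Of the other B-cell genes measured, Ms4a1 lay below it in all 4 lines (6.30 to 6.43), and Pax5 lay between 7.42 and 7.70 in all 4. The T-cell, erythroid, megakaryocyte and stromal lists reached at most 7.72, 7.82, 9.42 and 8.72. The part of these markers in the results below was not tested.

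In B117H, 1 of the 42 genes (2.38%) was called against B117P. It was Rps25, a small-subunit protein studied for its part in translation from internal entry sites, which fell. This is read against 9.41% of all 18193 genes called in either direction, 4.73% higher and 4.68% lower, at an adjusted p under 0.05 (limma, two-sided, Benjamini-Hochberg over all 45037 probe sets). At the unadjusted level, 7 members (16.7%) and 19.97% of all genes had p under 0.05. The median member change was 0.07, against -0.01 for all genes, and the limma 95% interval of the change lay within 2-fold in either direction for 41 of the 42 genes and within 1.5-fold for 38. It lay within these bounds for 17343 and 15009 of all 18193 genes, and within 1.5-fold for all 31 other genes at 14 or above.

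Rps25 read 11.80, 11.98 and 11.94 on the B117P arrays and 10.996, 10.994 and 10.970 on the B117H arrays. The B117H arrays lay below every array of the other lines, since B140P read 11.61, 11.63 and 11.66 and B140H 11.82, 11.65 and 11.78. In deposited units its intensity was 3841 ± 246 (SD, n = 3) in B117P and 2029 ± 21 in B117H. The fall was 0.92 log2 units (log2 change -0.92, SE 0.085, 95% interval -1.10 to -0.73, limma adjusted p = 2.48e-05), which is 1.89-fold. It kept its call under all 26 alternatives tried, with adjusted p between 2.1e-06 and 0.00965.

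A second probe set lists Rps25 together with the predicted genes Gm6988 and Gm4963 and did not show this fall. It is brighter, at 14.30, and read 14.09, 14.34 and 14.22 in B117P and 14.15, 14.30 and 14.33 in B117H, with overlapping arrays. Its change in B117H was 0.04 (limma adjusted p = 0.963) and in B140H -0.16 (adjusted p = 0.467). The Rps25 result therefore rests on 1 probe set, and signal of the other listed genes cannot be told apart from that of Rps25 on the brighter one. The 10 measured genes nearest to Rps25 on chromosome 9 (5 on each side in the order of GRCm38.p6) had a median change of -0.03 in B117H, and none of them was called there by limma, with adjusted p between 0.183 and 0.994.

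**Figure D2:**
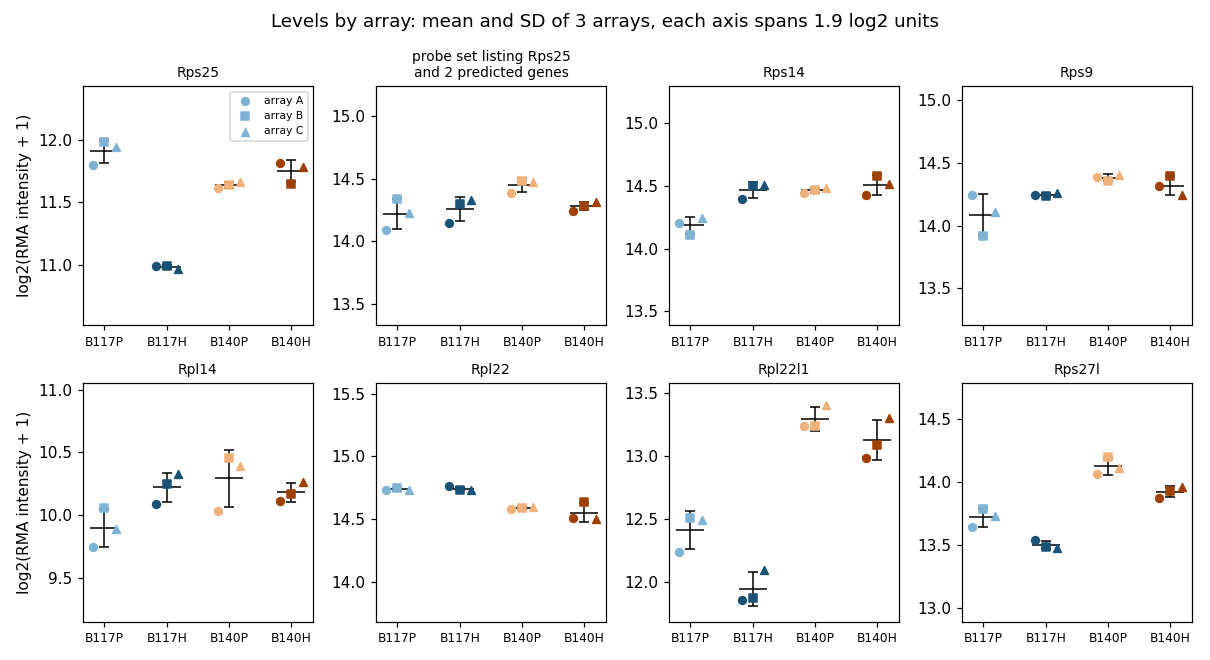
Levels on each array as log2(RMA intensity + 1), with 1 panel per gene; bars are the mean and SD of 3 arrays, marker shapes are the letters A, B and C, and each y axis spans 1.9 log2 units. Rps25 is lowest in B117H (10.97 to 10.996), the probe set that lists Rps25 with 2 predicted genes overlaps between B117P and B117H, and Rpl22l1 separates the B140 from the B117 lines.

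The remaining members of the B117 pair moved by small amounts. The change was positive in 30 genes and negative in 12 of the 42, and 15 genes read higher on every B117H array than on any B117P array, where 13.7% of all genes did so. Rps25 and Rpsa read lower on every array, as did 12.5% of all genes. In either direction the share was 40.5% of the members and 26.2% of all genes. The balance turned without probe sets whose names end in _s_at, _x_at or _a_at: over the 22 members then left the median was -0.05, with 3 higher and 5 lower on every array. Apart from Rps25, the members with an unadjusted p under 0.05 were Rpl14 (0.32), Rps14 (0.28), Rpl37a (0.24), Rps15 (0.23), Rps7 (0.21) and Rps18 (0.19), all positive, and none passed the adjusted threshold.

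Rps14, whose loss of a copy underlies a marrow failure syndrome, came nearest to the threshold. It read 14.20, 14.11 and 14.24 in B117P and 14.39, 14.50 and 14.51 in B117H. The arrays did not overlap, and the change of 0.28 (95% interval 0.10 to 0.46) had a limma adjusted p of 0.0665. It passed the threshold in 5 of 25 alternatives, among them without array B140H B (adjusted p = 0.0425), which is not part of this comparison but enters the shared estimate of spread. The other Rps14 probe set, at 14.34, changed by 0.21 (limma adjusted p = 0.207).

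Rpl14 (a large-subunit protein) read 9.75, 10.06 and 9.89 in B117P and 10.09, 10.25 and 10.32 in B117H. The arrays did not overlap, although the gap was small, and the change of 0.32 had a limma adjusted p of 0.186. The stalk genes Rplp0 and Rplp2, which recruit elongation factors to the ribosome, changed by 0.02 (adjusted p = 0.982) and by less than 0.01 (adjusted p = 0.997). Rplp0 measured 14.58 ± 0.042 (SD, n = 3) in B117P and 14.60 ± 0.041 in B117H, with a 95% interval of the change from -0.15 to 0.19.

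Of the genes linked to marrow failure, Rps19 measured 14.20 ± 0.041 in B117P and 14.23 ± 0.096 in B117H (n = 3), a change of 0.03 (limma adjusted p = 0.979). Rpl11 measured 14.37 ± 0.045 and 14.43 ± 0.051, a change of 0.06 (adjusted p = 0.889). Rpsa, also known as the laminin receptor precursor, measured 14.56 ± 0.039 in B117P and 14.46 ± 0.018 in B117H, a change of -0.10 (adjusted p = 0.705). The X-linked Rps4x changed by 0.03 (adjusted p = 0.969) and Rpl39, which lines the exit tunnel, by 0.09 (adjusted p = 0.836).

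In B140H, none of the 42 genes was called against B140P by limma, where 6.56% of all genes were (2.81% higher and 3.75% lower). At the unadjusted level, 2 members (4.76%) and 18.6% of all genes had p under 0.05, and both members, Rpl4 and Rps6, were lower. The median member change was -0.01, against 0.05 for all genes. Array B140H B had a median log2 level of 7.05 over all probe sets, against 6.89 to 6.97 on the others. Its part in these medians was not tested. With arrays centred on their medians the median member change was -0.0574. The 95% interval lay within 2-fold for all 42 genes and within 1.5-fold for 41, against 17591 and 15231 of all 18193 genes. It lay within 1.5-fold for all 31 other genes at 14 or above. The member outside that bound was Rpl37 (-0.34, interval -0.88 to 0.19). The changes were positive in 18 genes and negative in 24. No member read higher on every B140H array (13.7% of all genes did), and 6 read lower on every array (10% of all genes did): Rpl10a, Rpl13a, Rpl4, Rpl7, Rps6 and Rps7. In either direction the share was 14.3% of the members and 23.7% of all genes.

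Rps6, the substrate of the ribosomal S6 kinases, read 10.77, 10.61 and 10.70 in B140P and 10.56, 10.37 and 10.41 in B140H. The arrays did not overlap, and the change of -0.25 (95% interval -0.48 to -0.01) had a limma adjusted p of 0.306. Rpl4 read 14.69, 14.74 and 14.80 in B140P and 14.46, 14.53 and 14.65 in B140H. Its arrays did not overlap either, and the change of -0.19 had an adjusted p of 0.306. Rps25, which fell in B117H, changed by 0.11 in B140H (95% interval -0.07 to 0.30, adjusted p = 0.631), and its arrays overlapped between B140P and B140H.

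Among the other named members in B140H, Rplp0 changed by -0.05 (limma adjusted p = 0.841), Rplp2 by 0.01 (adjusted p = 0.983) and Rpsa by -0.06 (adjusted p = 0.791). Rps14 changed by 0.04 (adjusted p = 0.882), Rps19 by -0.07 (adjusted p = 0.799) and Rpl11 by -0.03 (adjusted p = 0.900). The brightest members, Rps29, Rplp2 and Rps28, all moved by at most 0.01 in this pair. The dimmest, Rps27, Rpl39 and Rps16, moved by 0.02, 0.03 and -0.03, with adjusted p between 0.928 and 0.959. Values of Rps16 lie near the bottom of the array's range, where RMA compresses differences.

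**Figure D3:**
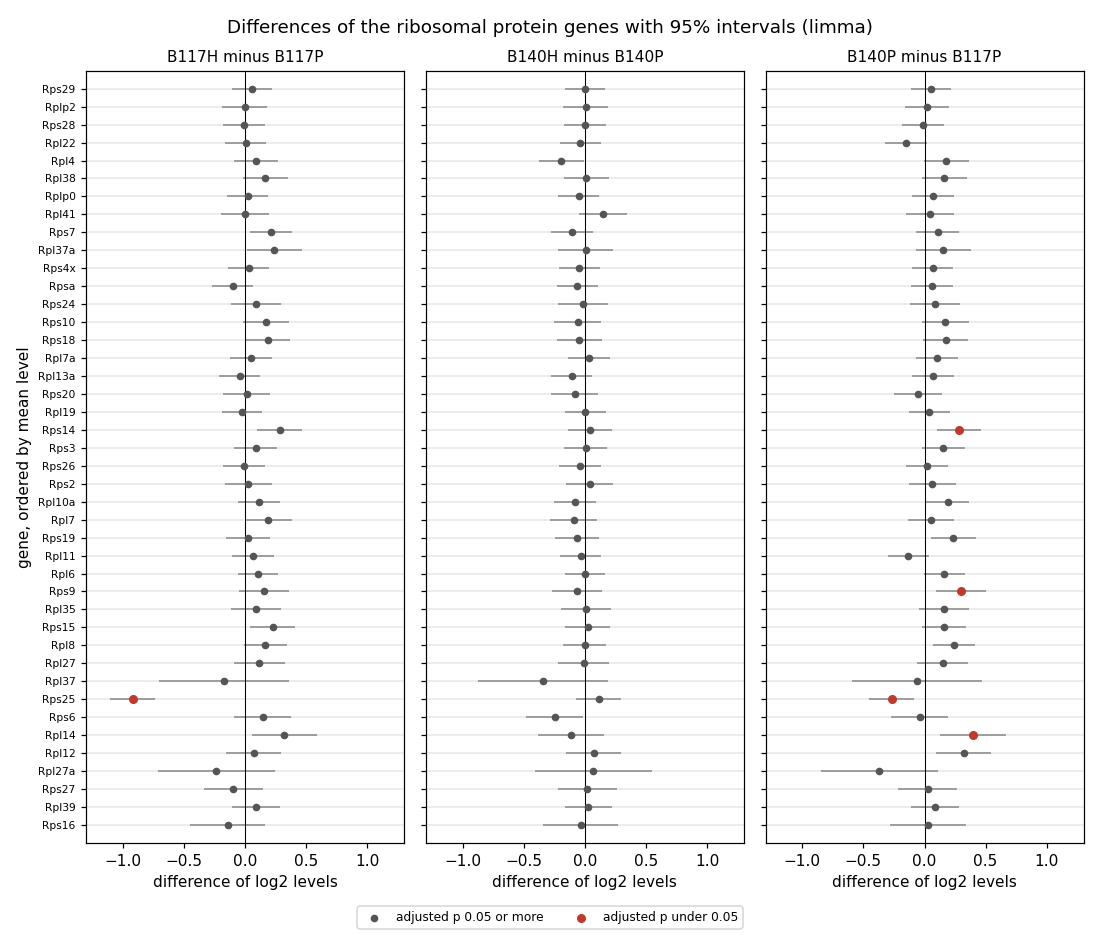
Difference of log2 levels of each of the 42 genes in 3 comparisons (points) with limma 95% intervals (lines), genes ordered by mean level; red marks an adjusted p under 0.05. Rps25 is the red point in B117H (-0.92), no point is red in B140H, and Rps14, Rps9, Rpl14 and Rps25 are red between the parental lines.

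The difference between the changes of both pairs (B140 change minus B117 change, an interaction term in limma) was called for 1 of the 42 genes, where 10.4% of all genes were (4.91% up and 5.51% down). That gene was Rps25, whose changes differed by 1.03 (SE 0.12, 95% interval 0.77 to 1.29, adjusted p = 0.000202), and it kept the call in all 25 alternatives. On the brighter probe set that also lists Gm6988 and Gm4963 the difference was -0.20 (adjusted p = 0.485), of opposite sign. At the unadjusted level, 6 members (14.3%) and 22.8% of all genes had p under 0.05. The 6 were Rps25, Rpl14 (-0.44), Rps6 (-0.39), Rps7 (-0.32), Rpl4 (-0.28) and Rpl7 (-0.28). In the last 5 the B140 change was the lower, and their adjusted p lay between 0.130 and 0.260 (limma). The median difference was -0.09, against 0.06 for all genes, with 31 members negative and 11 positive. With arrays centred on their medians the median member difference was -0.132.

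The average of both changes was called for 1 member, again Rps25 (-0.40, limma adjusted p = 0.00142), where 7.86% of all genes were called (3.69% up and 4.17% down). With the B arrays of all lines left out it was -0.36 (adjusted p = 0.0608), and with the C arrays left out -0.39 (adjusted p = 0.0872). This average combines -0.92 in B117H with 0.11 in B140H, so it is not a fall shared by both resistant lines. On the brighter probe set that also lists Gm6988 and Gm4963 the average was -0.06 (limma adjusted p = 0.818). Rps14 had the next smallest unadjusted p, with an average change of 0.16 (adjusted p = 0.174). No other member passed the adjusted threshold.

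The parental lines differed more than either pair. In B140P against B117P, 4 of the 42 genes were called (limma, adjusted p under 0.05), where 23.8% of all genes were: 3 were higher in B140P (12% of all genes) and 1 lower (11.8%). The median member difference was 0.08, against 0.00 for all genes, and the difference was positive in 34 members and negative in 8. On every B140P array 16 members read higher than on any B117P array (19.9% of all genes) and 3 read lower (18.7%): Rpl11, Rpl22 and Rps25. In either direction the share was 45.2% of the members and 38.6% of all genes. The count of called members moved with single arrays: none was left without array B117P C, B140P B or B140P C, and 7 were made without B140H B.

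Rps14 was higher in B140P, which read 14.44, 14.47 and 14.48 against 14.20, 14.11 and 14.24 in B117P. The arrays did not overlap, and the difference was 0.28 (95% interval 0.10 to 0.46, limma adjusted p = 0.0329). It lost its call without any 1 of 6 arrays: B117P A, B or C and B140P A, B or C, with differences between 0.24 and 0.31. The other Rps14 probe set, at 14.34, differed by 0.24 and was not called (limma adjusted p = 0.0717).

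Rpl14 read 10.04, 10.45 and 10.40 in B140P against 9.75, 10.06 and 9.89 in B117P. Here the arrays overlapped, and the difference was 0.40 (limma adjusted p = 0.0416). Without B117P A it was 0.32 (adjusted p = 0.149), and it also lost its call without B117P C, B117H B, B140P B or B140P C, with differences of 0.39, 0.40, 0.32 and 0.35.

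Rps9 (small subunit) read 14.39, 14.35 and 14.41 in B140P against 14.24, 13.91 and 14.11 in B117P. The arrays did not overlap, and the difference was 0.29 (limma adjusted p = 0.0478). The call was lost in 10 of the 12 fits without 1 array (kept without B117P A or B140H B), with differences between 0.21 and 0.31, and the dimmest Rps9 probe set, at 9.85, gave -0.09 (adjusted p = 0.874).

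Rps25 was lower in B140P by 0.27 log2 units (log2 difference -0.27, limma adjusted p = 0.0445). Its arrays did not overlap, with B140P at 11.61 to 11.66 and B117P at 11.80 to 11.98. The brighter probe set that also lists Gm6988 and Gm4963 went the other way, by 0.23 (adjusted p = 0.120), with B140P at 14.38 to 14.48, above every B117P array (14.09 to 14.34). The call was kept in 3 of the 12 fits without 1 array (those without B117P A, B140H A or B140H B) and lost in the other 9, with differences between -0.28 and -0.23.

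Among members that did not pass, Rpl12 had a difference of 0.32 (limma adjusted p = 0.0502), Rpl8 of 0.24 (adjusted p = 0.0572) and Rps19 of 0.24 (adjusted p = 0.0770). Rps19 measured 14.20 ± 0.041 in B117P and 14.44 ± 0.014 in B140P (SD, n = 3), without overlap, and passed the threshold in 4 of 25 alternatives, among them without array B140H B (limma adjusted p = 0.0487). Rpl11 went the other way, from 14.37 ± 0.045 to 14.23 ± 0.052, a difference of -0.13 (adjusted p = 0.357). Rplp0, Rplp2 and Rpsa differed by 0.07, 0.02 and 0.06, and Rps4x and Rpl39 by 0.07 and 0.08, with adjusted p between 0.700 and 0.951.

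The probe sets of a gene often differed in the sign of the change, which was counted however small the change was. Of the 42 genes, 22 have several probe sets of their own, and the sign of the change differed between them in 12 genes in B117H, in 12 in B140H and in 4 between the parental lines; none had probe sets called in opposite directions. Counting all 94 probe sets, 3 were called in B117H, 0 in B140H and 11 between the parental lines, 3.19%, 0% and 11.7% of them, against 9.41%, 6.56% and 23.8% of all genes. The shares of all genes count only the brightest probe set of each gene, so the units differ. Besides Rps25, those called in B117H were a dimmer one of Rps3 at 10.67 (0.44, limma adjusted p = 0.0139) and the one of Rps9 at 9.85 (-0.69, adjusted p = 0.0338), both chosen here after their values were seen. Rps3, a small-subunit protein that also acts in DNA repair, read 10.04, 10.24 and 10.24 in B117P and 10.71, 10.62 and 10.49 in B117H on that probe set. Its brighter probe set, at 14.40, changed by 0.09 (adjusted p = 0.794).

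Rpl22 had several probe sets of its own that differed in the same direction between the parental lines. It is a large-subunit protein that is not needed for protein synthesis and has lost copies in some leukaemias. Its brightest probe set, at 14.65, read 14.73, 14.75 and 14.73 in B117P and 14.58, 14.59 and 14.59 in B140P. The arrays did not overlap, and the difference was -0.15 (limma adjusted p = 0.259). Its next probe set differed by -0.27 (adjusted p = 0.0283), and its dimmest, at 11.39, by -0.78 (adjusted p = 0.000197). All 3 pointed the same way, with larger differences at lower brightness. The other probe sets called there beside the main ones belonged to Rps24 (0.91), Rps3 (0.78), Rps18 (0.50), Rpl13a (0.33) and Rpl35 (0.31), with limma adjusted p between 5.8e-05 and 0.0417. These and the dimmer ones of Rpl22 were also chosen after their values were seen.

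The size of changes on these arrays differed with brightness and was largest at middle levels. Among all 64 genes at 14 or above, 95% had a change of at most 0.21 in each resistant line, and 0% were called in B117H or B140H. Of these 64 genes 33 are members, so this limit is set in large part by the members themselves. Among genes between 8 and 10, the 95% limit was 0.81 in B117H and 0.71 in B140H, with 16.3% and 11.9% called. Among genes below 6 it was 0.28 and 0.30, with 1.83% and 1.01% called, and between 6 and 8 it was 0.55 and 0.43. Of the other 31 genes at 14 or above, none was called in either resistant line and 6 between the parental lines. The part of a ceiling in the small changes of the bright members was not tested. For the 57 members' probe sets at 14 or above the median change was 0.10 in B117H and -0.04 in B140H. For the 9 between 12 and 14, which belong to 7 genes, it was 0.20 and -0.16, with all 9 negative in B140H and all 9 lower in the B140 than in the B117 change. For the 28 below 12 it was -0.05 and 0.00.

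**Figure D4:**
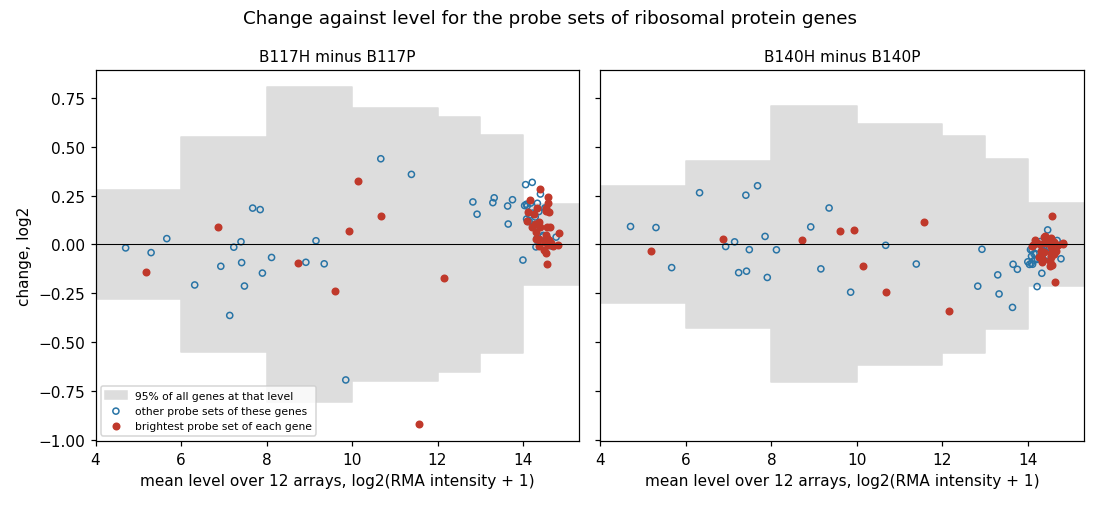
Change in B117H (left) and B140H (right), in log2 units, against mean level over 12 arrays, for the 94 probe sets of the 42 genes: filled points are the brightest probe set of each gene and open points the others; the grey band holds 95% of all genes at that level. The band narrows to 0.21 at 14 and above, where most points lie and where 33 of the 64 genes behind it are members, and Rps25 lies below the band in B117H.

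On the 110 probe sets that list a ribosomal protein gene with other symbols, 4 were called higher and 3 lower in B117H (6.36%), 0 in B140H (0%), and 13 higher and 4 lower in B140P than in B117P (15.5%). The shares of all genes, counted with 1 probe set per gene, were 9.41%, 6.56% and 23.8%. The median changes on these probe sets were 0.05, -0.06 and 0.09, and 82 of the 110 were negative in B140H, against 24 of the 42 members. Fau, whose product is a ubiquitin-like protein fused to a small-subunit protein, read 14.11 ± 0.024 in B117P and 14.24 ± 0.029 in B117H and was not called (0.13, limma adjusted p = 0.532). Rps3a1, a small-subunit gene outside the naming rule, was not called either (0.06, adjusted p = 0.888).

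Of the related copies left out by the naming rule, 7 were measured. Rpl22l1, a paralogue that can replace Rpl22, read 12.24, 12.51 and 12.49 in B117P, 11.85, 11.87 and 12.10 in B117H, 13.24, 13.24 and 13.41 in B140P and 12.99, 13.09 and 13.30 in B140H. It was lower in B117H without overlap (-0.47, limma adjusted p = 0.0250) and higher in B140P than in B117P (0.88, adjusted p = 9.62e-05). The call in B117H was lost without B117P B or C or B117H A or B, with changes between -0.44 and -0.43. In the parental comparison Rpl22l1 and Rpl22 pointed in opposite directions.

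Rsl24d1, a factor related to Rpl24 that helps to build the large subunit, was lower in B140H (-0.52, limma adjusted p = 0.0242; lost without B140P B or C or B140H A or C, at -0.54 to -0.43) and higher in B140P than in B117P (0.74, adjusted p = 0.000507). Rps27l, a p53-responsive copy of Rps27, was 13.72 ± 0.075 in B117P, 13.50 ± 0.032 in B117H, 14.12 ± 0.068 in B140P and 13.92 ± 0.043 in B140H (SD, n = 3). It was called between the parental lines (0.40, adjusted p = 0.00312) and in neither resistant line (-0.22 and -0.20, adjusted p = 0.164 and 0.262). Rpl7l1, Rpl39l, Rpl3l and Rps4l were called in none of these comparisons.

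Genes that make and regulate ribosomes are given from lists chosen for their function. Their counts stand beside 9.41% of all genes called in B117H and 6.56% in B140H. Of 126 measured assembly factors, 3 were called higher and 10 lower in B117H (10.3% in all), and 3 and 5 in B140H (6.35%), with median changes of -0.04 and -0.04. The largest called changes were Brix1, needed for the large subunit, in B117H (-1.24, limma adjusted p = 1.24e-05) and Znhit3, which helps to build small nucleolar particles, in B140H (-0.82, adjusted p = 0.000536). Of 21 genes of the RNA polymerase I machinery, which makes ribosomal RNA, 1 was higher and 4 lower in B117H (23.8%), and 0 and 1 in B140H (4.76%). The largest were Nolc1 (-0.77, adjusted p = 0.00430) and Taf1d in B140H (-1.02, adjusted p = 0.00152).

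A list of 34 genes holds translation factors, many of whose messenger RNAs also begin with a pyrimidine tract, and other genes such as Gas5. Of them, 2 were called higher and 1 lower in each resistant line (8.82%, against 9.41% of all genes in B117H and 6.56% in B140H). Eif4a2, an RNA helicase of translation initiation, led in B117H (-0.39, limma adjusted p = 0.0250; lost without any 1 B117P array or without B117H A or B, at -0.40 to -0.34) and Eif4e, the cap-binding protein, in B140H (0.70, adjusted p = 0.00300). Of 20 genes that carry growth signals to translation, 1 was higher and 1 lower in B117H (10%) and 0 and 1 in B140H (5%). Rictor, a core subunit of mTOR complex 2, fell in B117H (-1.39, adjusted p = 9.59e-05), and Myc, which drives ribosome production, in B140H (-0.60, adjusted p = 0.0280; lost without B140P A or C or B140H B, at -0.58 to -0.43).

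The 76 mitochondrial ribosomal protein genes, whose products form the separate ribosome of mitochondria, are the nearest relatives of the members by function. In B117H 0 were called higher and 11 lower (14.5%), and in B140H 3 and 2 (6.58%). The shares of all genes were 9.41% and 6.56%. The difference between the changes was called in 16 (21.1%), against 1 of the 42 cytosolic genes and 10.4% of all genes. Mrpl43 led in B117H (-2.02, limma adjusted p = 5.86e-06) and Mrps21 in B140H (-0.66, adjusted p = 0.00455). Their median level was 11.15, where changes of all genes ran wider, so the counts of both ribosomes were not taken at the same brightness.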

How the data were processed

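The authors deposited probe-set intensity values for 12 arrays on a linear scale (7.65 to 36675); RMA is named per the submitters' processing notes, and its version is not given in the sources used here. Values were put on the log2 scale after adding a pseudocount of 1. The file holds 45101 probe sets; 64 control probe sets were dropped and 45037 tested; 34945 carry 1 gene symbol, 932 several and 9160 none. limma 3.58.1 in R 4.3.3 fitted 1 coefficient per line on all 12 arrays, was tested on simulated data, and used Benjamini-Hochberg adjustment over all 45037 probe sets. The naming rule for members uses no values, but it and the lists were chosen with earlier results of these data known. Named are every called member, members fixed by function, the 3 brightest and 3 dimmest, the measured paralogues, and of each list the called gene with the largest change per resistant line; members named for a small unadjusted p or for arrays that do not overlap were picked after their values were seen. Letters paired the B140 arrays (correlations of deviations 0.587, 0.36 and 0.56 for A, B and C). In the B117 pair the A and C arrays correlated (0.555 and 0.392) but the B arrays did not (0.0278). These correlations are over all probe sets tested. Over the members alone they were 0.781, 0.614 and 0.0983 for A, B and C in the B117 pair. In the B140 pair the members gave 0.599, 0.155 and 0.831. Arrays of the same letter also correlated between lines of different parents, as in B117H and B140P (0.567, 0.367 and 0.493). The B arrays of B117P and B140H did not (-0.0432). The main fit left the letter out. With letter as a block, 3 members were called in B117H and still 0 in B140H. Alternatives covered normalization, pseudocount, dim probe sets, probe-set choice, prior, array weights, threshold and left-out arrays.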

Additional observations from a re-analysis of the deposited data

Results flagged for a closer look

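The change from parent to resistant line differed between B117 and B140, by limma's test of that difference, for Rps25 (1.03, adjusted p = 0.000202), Brix1 (1.26, adjusted p = 0.000228), Rictor (1.42, adjusted p = 0.00135), Mrpl43 (2.001, adjusted p = 0.000134), Eif4e (0.78, adjusted p = 0.0102), Nolc1 (0.72, adjusted p = 0.0476) and Eif4a2 (0.49, adjusted p = 0.0448). On the brighter probe set that lists Rps25 with Gm6988 and Gm4963 the difference was -0.20 (adjusted p = 0.485). Rps25, Brix1, Rictor and Mrpl43 fell in B117H and Eif4e rose in B140H. The list genes here were picked for the largest called change in 1 resistant line on the same arrays, which favours a large difference. Their p-values do not allow for that choice. Other list genes were left out, as the difference was called for 16 assembly factors and 16 mitochondrial ribosomal protein genes. The differences of Nolc1 and Eif4a2 lost their call in 11 and 9 of the 12 fits without 1 array. Groups of 3 arrays were not searched for single arrays far from the rest.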

How the results depend on the processing

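Most results kept their direction and their side of the threshold under the alternatives, and Rps25 kept its call in B117H and in the difference between the changes under all of them. With the replicate block, 3 members were called in B117H, Rps14 among them (adjusted p = 0.0466), and 2 in the difference. With an intensity trend and robust prior the counts were 4 in B117H, 2 in the difference, 2 in the average and 9 between the parental lines. Array weights gave 2 in B117H and 7 between the parental lines, and a median change in B140H of -0.0585. Brighter probe sets alone gave 2 in B117H and 7 between the parental lines, and averaging all probe sets per gene gave 7 between the parental lines and 1 member lower on every B117H array. Without probe sets whose names end in _s_at, _x_at or _a_at, 22 members were left: 3 were called in B117H, the medians were -0.0467 in B117H, 0.0175 for the difference and -0.0259 for the average, 3 members read higher and 5 lower on every B117H array, 2 lower on every B140H array and 4 higher on every B140P array, and Rps9 turned to -0.0894 (adjusted p = 0.874) between the parental lines. Quantile normalization gave a median difference of -0.0373, 2 members called and 9 higher on every array between the parental lines, 6 lower in B117H and 2 higher in B140H. Centred arrays gave medians of -0.0574 in B140H and -0.132 for the difference, and 12 members lower on every B140H array. The parental count was 2 with the arrays of those lines alone and 0 at an adjusted p under 0.01.

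Without all A arrays, 4 members read lower on every B117H array, 3 higher and 13 lower in B140H, and 28 higher and 6 lower in B140P, with 1 called. Without all B arrays, 0 were called in the average and 0 between the parental lines, with 2 higher and 15 lower in B140H. Without all C arrays, both counts were again 0, with 6 higher in B140H. Leaving out 1 array at a time gave 1 to 2 members called in B117H, 0 to 7 between the parental lines and 0 in B140H. Members lower on every B117H array ranged from 2 to 4. In B140H, 0 to 3 were higher and 6 to 13 lower, with a median change of -0.0612 to -0.001. Between the parental lines 16 to 27 were higher and 3 to 5 lower. The causes of these shifts were not tested. Only 5 of 6 arrays of the B117 pair matched their own letter best. With 3 arrays a line the number of arrays limits the precision, and the part of a ceiling in the bright members was not tested.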

Other observations

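Most members lie far apart in the genome. By the order of GRCm38.p6, the 42 genes stand on 15 chromosomes, with 7 on chromosome 7 (Rplp2, Rps9, Rps3, Rpl27a, Rps19, Rpl13a and Rps16), 5 on chromosome 17 and 4 each on chromosomes 4 and 9. The median change of the 4 on chromosome 9 (Rpl14, Rpl4, Rps25 and Rpsa) was -0.00464 in B117H, and that of all 1006 genes measured on this chromosome was -0.000665. Of the 10 neighbours of Rps25, Ccdc84 was called lower in B140H (-0.64, limma adjusted p = 0.0243). In B140P against B117P, 4 of the 10 were called, all higher: Slc37a4 (1.10, adjusted p = 3.47e-05), Ccdc84 (0.997, adjusted p = 0.000241), Vps11 (0.73, adjusted p = 0.00261) and Trappc4 (0.57, adjusted p = 0.00268). The values of Rps25 in these comparisons were 0.11 and -0.27. The 10 neighbours had a median change of -0.26 in B140H and a median difference of 0.22 between the parental lines.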
